A study of Homo sapiens with 5 samples.

Results

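MDA-MB-231 is an established human triple-negative breast cancer line with a mesenchymal character, and 9 genes of the epithelial-mesenchymal transition (EMT) were followed in it under low oxygen by RNA sequencing. The 9 genes encode the transcription factors SNAI1, SNAI2, TWIST1, ZEB1 and ZEB2, the intermediate filament protein vimentin (VIM) and the cadherins CDH1, CDH2 and CDH11. They were taken by symbol, and each had 1 row among the 26475 gene rows of the deposited tables. Of these 9, 7 reached 1 CPM, a count scaled to the size of its library, in at least 1 library, as did 13940 genes in all, while TWIST1 and CDH2 did not.

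The study asked how a short exposure to low oxygen differs from a long one and what is left when oxygen returns. There were 5 conditions with 1 library each, and all cells were of the same line with no other agent or genetic change named in the labels. The reoxygenated cells spent 10 days at 1% O2 and then 10 days at 20% O2. The cells of chronic hypoxia spent 10 days at 1% O2, and their counterparts spent 10 days at 20% O2. The cells of acute hypoxia spent 1 day at 1% O2, and their counterparts spent 1 day at 20% O2. No library was labelled as cells held at 20% O2 for as long as the reoxygenated cells had been in culture, so total time in culture cannot be told apart from the return of oxygen in that library.

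In EMT, epithelial cells lose cadherin-based junctions and take on a migratory form with a vimentin network. SNAI and ZEB proteins are zinc-finger repressors that bind E-boxes of the sequence CAGGTG, among them those of the E-cadherin gene CDH1, while TWIST1 is a basic helix-loop-helix factor. Low oxygen stabilizes the hypoxia-inducible factors (HIFs), which bind cores of the sequence ACGTG or GCGTG and are known to act on EMT factors in several carcinoma lines. A loss of E-cadherin with a gain of N-cadherin (CDH2) or of the mesenchymal cadherin CDH11 is called a cadherin switch.

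The RefSeq promoter table used here (GRCh38.p14) had entries for 4 of the 9 genes, namely VIM, ZEB1, ZEB2 and CDH2. The 250 bases before a transcription start are shown for VIM, the most abundant member, and for ZEB1 and ZEB2, which both lay lower at 1% than at 20% O2 on day 10. Capitals mark every CAGGTG or its complement CACCTG, and every ACGTG or GCGTG or their complements CACGT and CACGC, on either strand. The windows are chr10:17227991-17228240 on the plus strand for VIM, chr10:31318167-31318416 on the plus strand for the ZEB1 start that lies first in the genome, and chr2:144520120-144520369 on the minus strand for ZEB2.
VIM: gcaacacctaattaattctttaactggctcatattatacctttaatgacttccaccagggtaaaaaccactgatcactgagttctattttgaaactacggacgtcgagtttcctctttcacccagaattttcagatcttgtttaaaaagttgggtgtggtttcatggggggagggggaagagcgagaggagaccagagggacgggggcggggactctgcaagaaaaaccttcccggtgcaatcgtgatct
ZEB1: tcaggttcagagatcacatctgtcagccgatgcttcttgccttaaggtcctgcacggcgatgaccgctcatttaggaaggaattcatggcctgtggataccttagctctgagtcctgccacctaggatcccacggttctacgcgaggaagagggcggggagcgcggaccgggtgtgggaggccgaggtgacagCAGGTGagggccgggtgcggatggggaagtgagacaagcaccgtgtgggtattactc
ZEB2: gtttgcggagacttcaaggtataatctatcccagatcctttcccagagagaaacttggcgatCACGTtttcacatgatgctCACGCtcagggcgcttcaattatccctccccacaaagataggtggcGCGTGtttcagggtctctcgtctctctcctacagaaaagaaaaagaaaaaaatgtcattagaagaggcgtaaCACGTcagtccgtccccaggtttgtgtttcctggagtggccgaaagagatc
The VIM window held neither motif, the ZEB1 window held 1 E-box, and the ZEB2 window held 4 HIF cores and no E-box. Among 35116 promoter windows of the same length, 17.49% held the E-box and 43.21% held either HIF core. These matches describe letters in the windows and not binding. ZEB1 had 7 starts in the table, and only the window at the first is shown. Over all 7 windows, 2 held an E-box and 3 held a HIF core.

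Totals of estimated counts ran from 7719807 to 12544941 per library, so that 3 counts, the limit allowed by a count of 0, were worth 0.245 to 0.377 CPM. The reoxygenated library was the shallowest. Genes marking a mesenchymal-type carcinoma line (VIM, ZEB1, FN1, CD44 and AXL) summed to between 3079 and 4424 CPM, whereas CDH1, ESRP1, GRHL2, ESR1, PGR and EPCAM together summed to between 16.8 and 31.1 CPM, most of it EPCAM. Other epithelial genes were not low, among them the keratin genes KRT8 (253 to 462 CPM) and KRT18 (342 to 478 CPM). A wider list of 38 epithelial genes summed to 1830 to 2180 CPM, and a list of 38 mesenchymal genes to 6061 to 6598 CPM. Markers of other cells were low apart from the lysosomal gene CD68. The leukocyte list had all 4 genes above the filter and summed to 150 to 205 CPM, of which CD68 gave 147 to 201 CPM and PTPRC 1 to 28 counts. The endothelial list had 3 of 4 genes above the filter (5.30 to 11.2 CPM), the fibroblast list 1 of 4 (PDGFRB; 4.63 to 18.2 CPM) and the liver list 0 of 2 (0 to 0.278 CPM).

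With 1 library per condition, a pairwise difference compares those libraries and has no replicate check and no test. Differences are given as log2 differences of CPM, scaled with TMM factors (edgeR's correction for library composition), and the interval after each is an exact Clopper-Pearson 95% interval of the count ratio, which covers counting error only. Reads carried no molecular identifiers. A difference of at least 1 in size on the log2 scale, or 2-fold, is called past the size rule. In bulk RNA, fewer cells that express a gene and less of its RNA per cell cannot be told apart.

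Levels per transcript length placed VIM far above the other members in every library, at 457 to 1030 CPM per kb of its longest principal transcript. ZEB1 followed at 9.21 to 13.3 CPM per kb and SNAI2 at 7.04 to 9.81, and the ranges of these neighbours over the 5 libraries overlapped. CDH11 (1.65 to 4.29 CPM per kb), ZEB2 (2.07 to 2.74) and SNAI1 (1.42 to 3.07) came next, again with overlapping ranges, and all 3 lay below the lowest value of SNAI2. CDH1 reached at most 0.217 CPM per kb and CDH2 at most 0.0941, with overlapping ranges, and TWIST1 was listed at 0. SNAI1, SNAI2, ZEB1, ZEB2, VIM and CDH11 were thus detected in every condition, and the epithelial cadherin was close to the limit of detection in each.

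**Figure D1:**
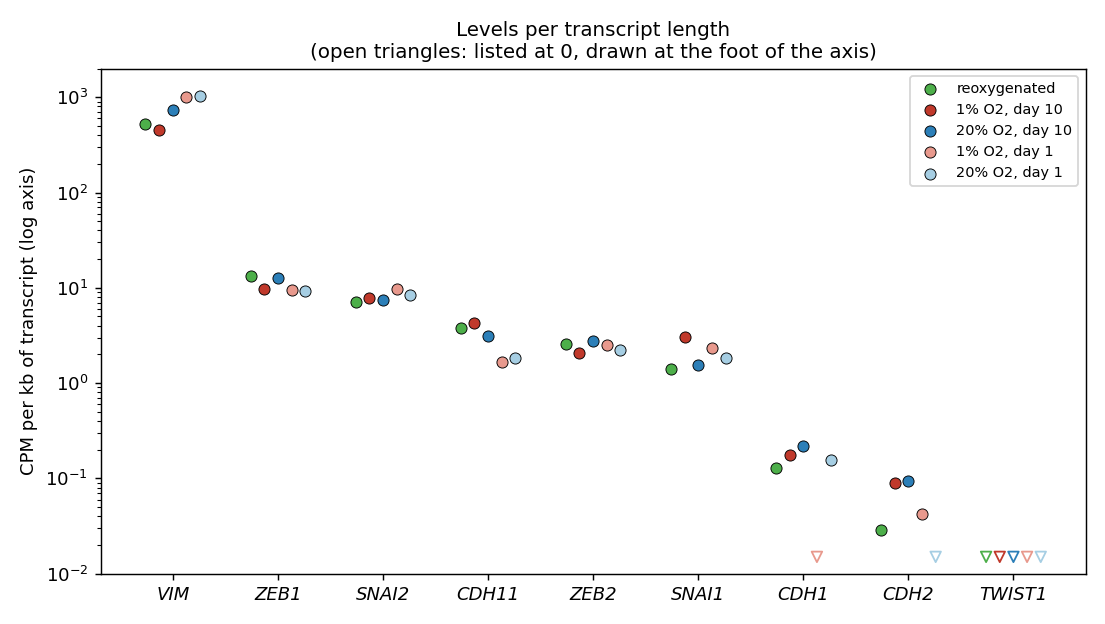
Levels of the 9 genes in CPM per kb of transcript on a log axis, with 1 point per library and open triangles for genes listed at 0. VIM lies between 457 and 1030 CPM per kb, ZEB1 and SNAI2 between 7.04 and 13.3, and CDH1 and CDH2 at or below 0.217.

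VIM forms the intermediate filament network of mesenchymal cells (chromosome 10, 17228259 to 17237593, plus strand). It had 8945 counts (1125 CPM) in the reoxygenated library, 10192 (977 CPM) at 1% O2 on day 10 and 19146 (1561 CPM) at 20% O2 on day 10. On day 1 it had 23189 counts (2148 CPM) at 1% O2 and 22834 (2198 CPM) at 20% O2. Levels were high in both day 1 libraries, intermediate at 20% O2 on day 10 and low in both libraries that had spent 10 days at 1% O2, reoxygenated cells included.

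On day 1, VIM at 1% O2 differed from 20% O2 by −0.03 on the log2 scale (−0.06 to −0.01). On day 10, VIM was 1.60-fold lower at 1% than at 20% O2, a log2 difference of −0.68 (−0.71 to −0.64), and 17.5% of the 11695 genes with at least 5 CPM in a library lay lower still. The chronic difference minus the acute one was −0.64. The 20% O2 libraries of both days differed too, where day and library cannot be told apart. VIM on day 10 lay 1.41-fold below day 1, a log2 difference of −0.49 (−0.52 to −0.47), and 4.62% of those genes lay lower. At 1% O2, day 10 lay 2.20-fold below day 1, a log2 difference of −1.14 (−1.17 to −1.10), or −0.99 when library totals replaced TMM factors.

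VIM was low in the reoxygenated library too. It was 0.20 above 1% O2 of day 10 on the log2 scale (0.16 to 0.24) and 0.47 below 20% O2 of day 10, a log2 difference of −0.47 (−0.51 to −0.44). VIM was the only member past the filter whose interval against 20% O2 of day 10 excluded 0. At 20% O2 alone, VIM on day 10 also lay below day 1, at −0.49. Longer culture and the past at 1% O2 cannot be told apart in the reoxygenated library.

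SNAI1 encodes Snail, a short-lived repressor marked for degradation by the kinase GSK3B (chromosome 20, 49982999 to 49988886, plus strand). It had 19 counts (2.39 CPM) in the reoxygenated library, 54 (5.17 CPM) at 1% O2 on day 10 and 32 (2.61 CPM) at 20% O2 on day 10. On day 1 it had 43 counts (3.98 CPM) at 1% O2 and 32 (3.08 CPM) at 20% O2. Both 1% O2 libraries lay above all 3 libraries kept at or returned to 20% O2, but on 19 to 54 counts.

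The log2 difference of SNAI1 was 0.35 on day 1 (−0.32 to 1.08), with an interval that included 0. On day 10 it was 0.94 (0.33 to 1.67), or 1.92-fold higher at 1% O2, and 89.0% of the genes with at least 5 CPM lay lower. Reoxygenated cells lay 2.08-fold below 1% O2 of day 10, a log2 difference of −1.06 (−1.95 to −0.34). Against 20% O2 of day 10 they differed by −0.12 (−1.03 to 0.74). SNAI1 thus lay higher at 1% O2 on day 10 and near the 20% O2 value after oxygen had returned, within wide counting intervals. The values 0.94 and −1.06 both use the 1% O2 library of day 10, so their opposite signs are partly built in.

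SNAI2 encodes Slug, the paralog of Snail (chromosome 8, 48917604 to 48921740, minus strand). It had 136 counts (17.1 CPM) in the reoxygenated library, 196 (18.8 CPM) at 1% O2 on day 10 and 224 (18.3 CPM) at 20% O2 on day 10. The day 1 libraries held 257 counts (23.8 CPM) at 1% O2 and 214 (20.6 CPM) at 20% O2. The libraries spanned 1.39-fold, and the interval excluded 0 only for day 10 minus day 1 at 1% O2, where the log2 difference was −0.34 (−0.62 to −0.07). Its log2 difference between 1% and 20% O2 was 0.21 on day 1 (−0.06 to 0.48) and 0.04 on day 10 (−0.24 to 0.32).

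As a share of the summed SNAI1 and SNAI2 counts, SNAI1 made up 21.6% at 1% O2 on day 10 (exact 95% interval 16.7 to 27.2%). The share was 12.3% in reoxygenated cells (7.54 to 18.5%), 12.5% at 20% O2 on day 10 (8.71 to 17.2%), 14.3% at 1% O2 on day 1 (10.6 to 18.8%) and 13.0% at 20% O2 on day 1 (9.07 to 17.9%). SNAI2 thus supplied most of the counts of the pair in every library, and the 1% O2 library of day 10 had the highest share of SNAI1, with an interval that overlapped those of the other libraries.

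ZEB1 is a repressor of epithelial genes that is itself held down by the miR-200 family (chromosome 10, 31318495 to 31529814, plus strand). It had 573 counts (72.0 CPM) in the reoxygenated library, 546 (52.3 CPM) at 1% O2 on day 10 and 846 (69.0 CPM) at 20% O2 on day 10. The day 1 libraries held 554 counts (51.3 CPM) at 1% O2 and 519 (49.97 CPM) at 20% O2. The reoxygenated and 20% O2 day 10 libraries were high, and the other 3 were close together below them.

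At 20% O2, ZEB1 on day 10 was 1.38-fold above day 1, a log2 difference of 0.46 (0.31 to 0.63), and 92.5% of the genes with at least 5 CPM lay lower. At 1% O2 the same interval of time gave 0.03 (−0.15 to 0.20). ZEB1 at 1% O2 on day 10 was 1.32-fold below 20% O2 of that day, a log2 difference of −0.40 (−0.56 to −0.24), whereas on day 1 the difference was 0.04 (−0.14 to 0.21). Reoxygenated cells lay 0.46 above 1% O2 of day 10 (0.29 to 0.63) and differed from 20% O2 of day 10 by 0.06 (−0.09 to 0.22). These comparisons share libraries, so the values are not independent of each other.

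ZEB2 is the close relative of ZEB1 (chromosome 2, 144364364 to 144524583, minus strand). It had 193 counts (24.3 CPM) in the reoxygenated library, 206 (19.7 CPM) at 1% O2 on day 10 and 321 (26.2 CPM) at 20% O2 on day 10. On day 1 it had 258 counts (23.9 CPM) at 1% O2 and 222 (21.4 CPM) at 20% O2. The 1% O2 library of day 10 was the lowest, and the libraries spanned 1.33-fold. The log2 difference between 1% and 20% O2 was 0.16 on day 1 (−0.10 to 0.43) and −0.40 on day 10 (−0.67 to −0.15). Reoxygenated cells lay 0.30 above 1% O2 of day 10 (0.01 to 0.59) and differed from 20% O2 of day 10 by −0.11 (−0.37 to 0.15). Between the 1% and 20% O2 libraries of day 10, ZEB1 and ZEB2 thus differed alike, each about 1.32-fold lower at 1% O2. For day 10 minus day 1 at 1% O2, ZEB2 lay at −0.27 (−0.55 to −0.01) and ZEB1 at 0.03 (−0.15 to 0.20). At 20% O2 the same difference was 0.29 for ZEB2 (0.04 to 0.55) and 0.46 for ZEB1 (0.31 to 0.63). ZEB1 supplied 68.2 to 74.8% of the counts of the pair in each library.

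TWIST1 (chromosome 7, 19020991 to 19117672, minus strand) had 0 counts in all 5 libraries. A count of 0 allows up to 0.377 CPM in the reoxygenated library, 0.287 CPM at 1% O2 and 0.245 CPM at 20% O2 on day 10, and 0.278 CPM at 1% O2 and 0.289 CPM at 20% O2 on day 1. No response of TWIST1 to oxygen could be seen at this depth in any comparison.

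CDH1 encodes E-cadherin, the cadherin of epithelial adherens junctions (chromosome 16, 68737225 to 68835548, plus strand). It had 5 counts (0.629 CPM) in the reoxygenated library, 9 (0.862 CPM) at 1% O2 on day 10 and 13 (1.06 CPM) at 20% O2 on day 10. On day 1 it had 0 counts at 1% O2 and 8 (0.770 CPM) at 20% O2. Only the 20% O2 library of day 10 passed 1 CPM, and the 1% O2 library of day 1 was the only library with no count. Set against the limit of 3 counts, CDH1 was at least 2.77-fold lower at 1% than at 20% O2 on day 1, and at least 3.10-fold higher on day 10 than on day 1 at 1% O2, with the 8 and 9 counts taken as exact. The exact intervals of the log2 differences, which cover the error of those counts too, reached up to −0.83 on day 1 and down to 1.03 for time at 1% O2. On day 10 the log2 difference between 1% and 20% O2 was −0.25 (−1.70 to 1.04), and reoxygenated cells differed from 20% O2 by −0.61 (−2.60 to 0.83). With at most 13 counts a library, no difference among the other conditions compared was detectable.

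CDH2 encodes N-cadherin (chromosome 18, 27950966 to 28177446, minus strand). It had 1 count in the reoxygenated library, 4 at 1% O2 on day 10, 5 at 20% O2 on day 10, 2 at 1% O2 on day 1 and 0 at 20% O2 on day 1. Every pairwise interval included 0, and no difference was detectable at this depth.

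CDH11 encodes OB-cadherin, a cadherin of osteoblasts and other mesenchymal cells (chromosome 16, 64943753 to 65126112, minus strand). It had 206 counts (25.9 CPM) in the reoxygenated library, 307 (29.4 CPM) at 1% O2 on day 10 and 265 (21.6 CPM) at 20% O2 on day 10. The day 1 libraries held 122 counts (11.3 CPM) at 1% O2 and 132 (12.7 CPM) at 20% O2. The 3 libraries of longer culture lay above both day 1 libraries, with no overlap. CDH11 was the best counted of the 3 cadherins and the most abundant of them per kb in every library.

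On day 1 the log2 difference of CDH11 between 1% and 20% O2 was −0.17 (−0.54 to 0.20), and on day 10 it was 0.44 (0.20 to 0.69), or 1.36-fold higher at 1% O2. Day 10 was 2.58-fold above day 1 at 1% O2, a log2 difference of 1.37 (1.07 to 1.70), and 1.69-fold above day 1 at 20% O2, a log2 difference of 0.76 (0.46 to 1.08). At 20% O2, 97.1% of the genes with at least 5 CPM lay lower. Reoxygenated cells differed from 1% O2 of day 10 by −0.18 (−0.45 to 0.08) and from 20% O2 of day 10 by 0.26 (−0.01 to 0.53), both intervals including 0. The fibroblast marker PDGFRB was also highest at 1% O2 on day 10, with 182 counts against 45 to 58 in the other libraries. The fibroblast genes DCN and PDGFRA had 0 to 1 and 0 to 3 counts. LUM, also on the fibroblast list, had 6 counts in the reoxygenated library, 6 at 1% and 10 at 20% O2 on day 10. On day 1 LUM had 1 count at 1% O2 and 3 at 20% O2.

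**Figure D2:**
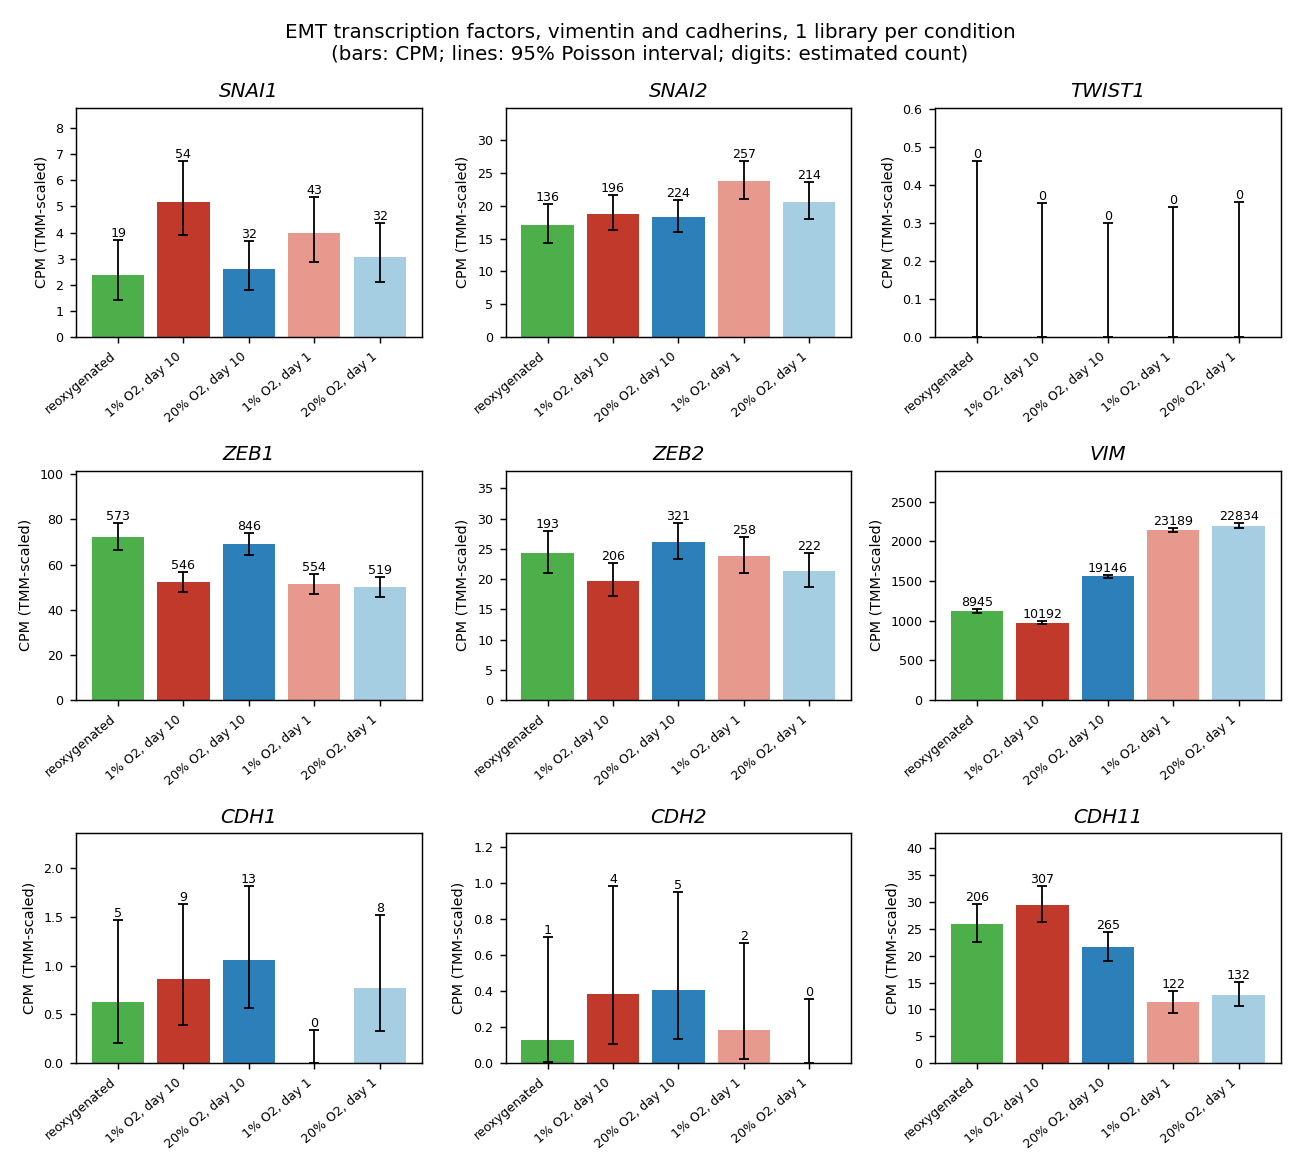
Level of each of the 9 genes by library in TMM-scaled CPM on linear axes from 0, with 1 bar per library, 95% Poisson intervals for counting error and the estimated count above each bar. VIM is highest in both day 1 libraries (2148 and 2198 CPM), CDH11 is lowest in them (11.3 and 12.7 CPM), SNAI1 peaks at 5.17 CPM at 1% O2 on day 10, and TWIST1 is at 0 throughout.

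After 1 day at 1% O2, little separated the EMT genes from the 20% O2 library of the same day. Of the 7 members above the filter, 0 were higher and 1 was lower by the size rule, the scarce CDH1 with 0 against 8 counts, beside 2.96% of all genes past the rule (2.12% higher, 0.839% lower). CDH1 dropped out when genes had to reach 5 CPM and was within the rule in the authors' table. Among the others the differences ran from −0.17 (CDH11) to 0.35 (SNAI1), and the only interval that excluded 0 besides that of CDH1 was that of VIM, at a difference of −0.03. Known HIF targets lay apart by then. Of 8 taken as a yardstick, 6 were past the size rule and higher, with a median of 1.60 beside 0.00 for all genes.

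After 10 days at 1% O2, SNAI1 and CDH11 lay above their 20% O2 counterparts, VIM, ZEB1 and ZEB2 lay below them, and all 5 intervals excluded 0. None of the 7 members above the filter passed the size rule, beside 21.5% of all genes (14.4% higher, 7.04% lower), and the median over them was −0.25 beside 0.02 over all genes. That median is the value of the scarce CDH1 (−1.70 to 1.04), on 9 against 13 counts, so it shows no shift of the set. Scaled by library totals, SNAI1 passed the rule at 1.06, and the median of all genes then lay at 0.14. VIM, a mesenchymal marker, and SNAI1, an inducer of EMT, stood on opposite sides of 0.

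The size of the day 10 oxygen differences can be set beside those of time at 20% O2, with which they share the 20% O2 library of day 10. For CDH11 the oxygen difference was 0.44 and the time difference 0.76, and for ZEB1 they were −0.40 and 0.46. For VIM they were −0.68 and −0.49, for ZEB2 −0.40 and 0.29, and for SNAI1 0.94 and −0.22. Of the 7 members, 0 passed the size rule in the 20% O2 pair, beside 4.37% of all genes (3.06% higher, 1.31% lower). In the 1% O2 pair, 3 passed it for day 10 against day 1, with VIM lower and CDH11 and CDH1 higher, beside 20.8% of all genes (14.2% higher, 6.56% lower). VIM was within the rule, at −0.99, when scaled by library totals, and CDH1, at 0.90, in the authors' table.

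For the chronic difference minus the acute one, 1 of 7 members passed the size rule, again the scarce CDH1, beside 18.7% of all genes (12.5% higher, 6.18% lower). The remaining members lay at −0.64 (VIM), −0.56 (ZEB2), −0.44 (ZEB1), −0.17 (SNAI2), 0.59 (SNAI1) and 0.61 (CDH11). CDH1 rested on 35 counts over all libraries, and its value depended on the count added before taking logs.

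After 10 days of reoxygenation, SNAI1 was lower and ZEB1, ZEB2 and VIM were higher than at 1% O2 on day 10, each with an interval that excluded 0. The day 10 oxygen difference uses the same 1% O2 library, so signs opposite to it are partly built in. By the size rule 1 of 7 members was lower and 0 were higher, beside 16.8% of all genes (5.6% higher, 11.2% lower). SNAI1 was within the rule, at −0.89, in the authors' normalized table. Set against 20% O2 of day 10, 0 of 7 members passed the rule, beside 4.81% of all genes (3.4% higher, 1.41% lower). There the differences ran from −0.61 (CDH1, 5 against 13 counts) to 0.26 (CDH11).

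**Figure D3:**
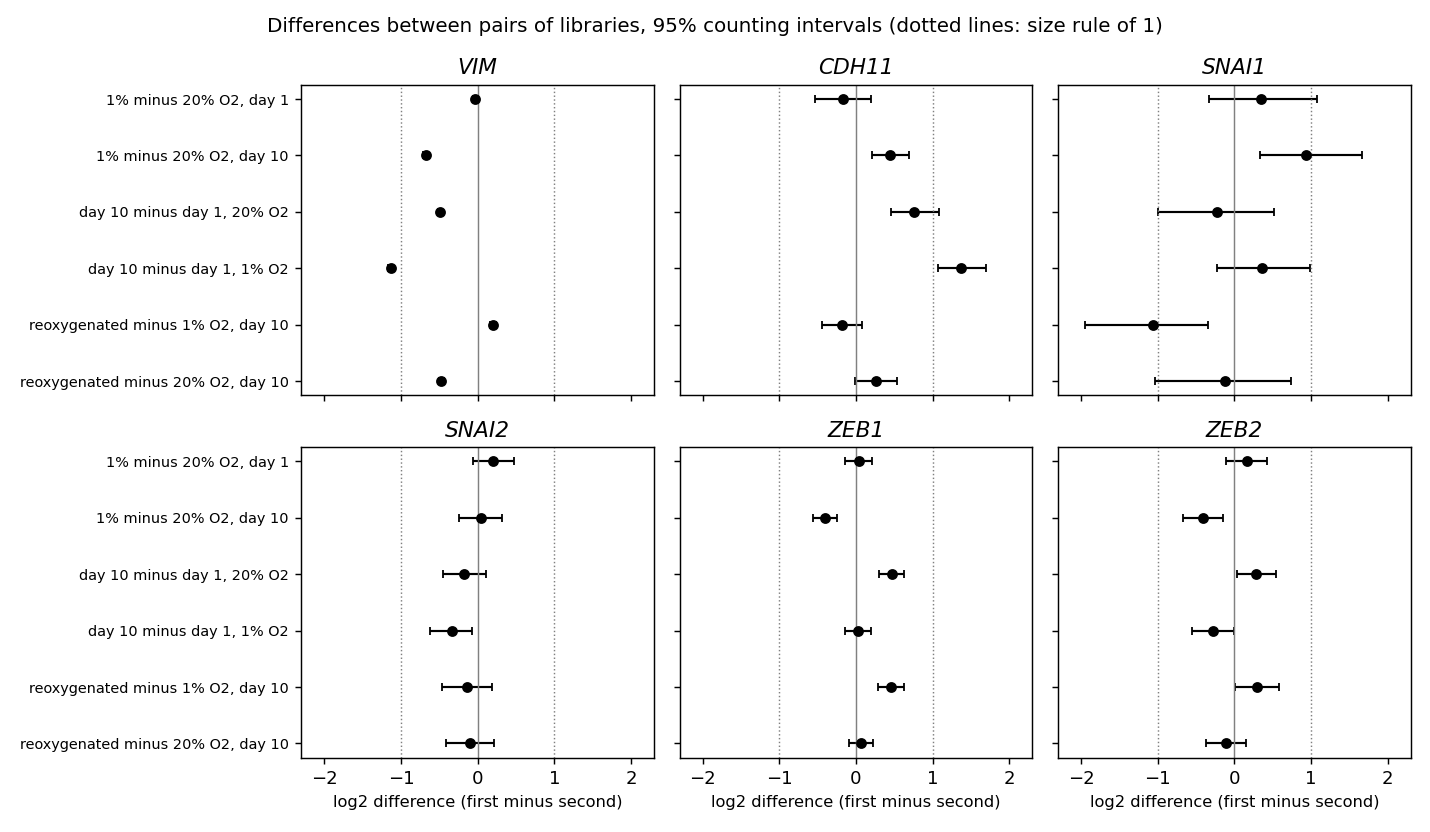
Log2 differences of the 6 better counted genes between pairs of libraries, with exact 95% counting intervals as horizontal lines and the size rule as dotted lines. VIM lies at −0.68 between 1% and 20% O2 on day 10 and at −0.03 on day 1. CDH11 lies at 0.76 and 1.37 for time at 20% and 1% O2. SNAI1 lies at 0.94 for oxygen on day 10 and at −1.06 for reoxygenated minus 1% O2 of day 10. Both SNAI1 values use the 1% O2 library of day 10, so their opposite signs are partly built in.

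Oxygen was also tested with the day as a term, on the 4 libraries without reoxygenation, with edgeR's quasi-likelihood test and Benjamini-Hochberg adjustment over 13011 genes. The labels do not say that libraries of different days came from separate cultures, so its p-values do not measure a spread between cultures. The 1 residual degree of freedom is the change of the oxygen difference between the days. It was moderated with 29.8 prior degrees of freedom from all genes. Of the 6 members tested, 0 were called by edgeR, beside 0.999% of all genes (0.899% rose, 0.0999% fell), and 0 had an unadjusted p under 0.05, beside 12.2% of all genes. DESeq2 and limma-voom called 0 as well. The estimate for SNAI1 was 0.70 on the log2 scale (SE 0.49, edgeR adjusted p = 0.604), and that for VIM was −0.34 (SE 0.34, edgeR adjusted p = 0.736). ZEB1 was at −0.17, ZEB2 at −0.11, SNAI2 at 0.14 and CDH11 at 0.17, with edgeR adjusted p-values of 0.845 to 0.923. The model takes 1 oxygen effect for both days, and the members' differences on the separate days were of unlike size. A difference on 1 day alone counts partly as error, so 0 calls do not show that such a difference was absent. Without the 1% O2 library of day 1, and with no day term, VIM was called lower at 1% O2 (log2 −0.89, edgeR adjusted p = 0.0166). In that fit 32.8% of all genes were called, and the 1% O2 level was a single library taken to vary like the 20% O2 pair. In the full test 7 of the 8 HIF targets rose at 1% O2, among them NDRG1 at 4.35 (SE 0.47, edgeR adjusted p = 1.13e-06) and CA9 at 3.19 (SE 0.31, edgeR adjusted p = 2.86e-07).

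Epithelial genes, the class that SNAI and ZEB proteins repress, were set beside the members. Of 38 listed, 31 passed the filter, and on day 10 at 1% O2, 11 were past the size rule and higher and 1 was lower, beside 14.4% and 7.04% of all genes, with a median of 0.76 beside 0.02 for all genes. CLDN7, a tight junction claudin, had 132 counts in the reoxygenated library, 468 at 1% O2 on day 10, 103 at 20% O2 on day 10, 90 at 1% O2 on day 1 and 94 at 20% O2 on day 1. Its chronic log2 difference was 2.39 (2.11 to 2.74), and the acute one was −0.12 (−0.55 to 0.31).

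The protease inhibitor gene SPINT1 had 42 counts in the reoxygenated library, 400 at 1% O2 on day 10, 79 at 20% O2 on day 10, 33 at 1% O2 on day 1 and 41 at 20% O2 on day 1, a chronic difference of 2.54 (2.22 to 2.94). The epithelial transcription factor gene ELF3 lay at 2.43 (1.78 to 3.56) with 73 against 14 counts. TJP3, a tight junction scaffold gene, lay at 4.15 (3.30 to 11.18) with 49 counts against 1. TJP3, CRB3, PPL and PRSS8, 4 of the 11 higher genes, passed the filter through the 1% O2 library of day 10 alone, so their place past the rule follows in part from the filter. EPCAM was at 0.94 (0.68 to 1.22). Not all epithelial genes were on that side, as the keratin gene KRT8 was at −0.87 (−0.93 to −0.80) with 2644 against 5669 counts.

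In reoxygenated cells 13 epithelial genes were past the size rule and lower than at 1% O2 on day 10, and 1 was higher, beside 11.2% and 5.6% of all genes, with a median of −0.71. This comparison shares the 1% O2 library of day 10 with the chronic one, so that an opposite sign is partly built in. TJP3, CRB3, PPL and PRSS8 passed the filter through that library alone, so their lower place in reoxygenated cells also follows in part from the filter. Against 20% O2 of day 10 the median was 0.00, with 2 higher and 0 lower, beside 3.4% and 1.41% of all genes. On day 1 the median was 0.00, with 1 higher and 0 lower, beside 2.12% and 0.839% of all genes. The summed level of the whole epithelial list was 1917 CPM in reoxygenated cells, 2180 CPM at 1% and 2116 CPM at 20% O2 on day 10, and 1830 CPM at 1% and 1885 CPM at 20% O2 on day 1. In the test of oxygen over both days, edgeR called 0 of 27 tested epithelial genes, with 8 at an unadjusted p under 0.05, beside 12.2% of all genes. DESeq2 called 0 and limma-voom called 2 (CLDN7 and SPINT1). For E-cadherin itself, the day 10 interval of CDH1 (−1.70 to 1.04, on 9 against 13 counts) was too wide to place it beside or apart from these genes.

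Of 38 listed mesenchymal genes, 34 passed the filter, with 7 past the size rule and higher and 1 lower at 1% O2 on day 10, beside 14.4% and 7.04% of all genes, and a median of 0.33. Of the 7, COL3A1 passed the filter through that library alone. Fibronectin (FN1), a matrix protein used as a marker beside VIM, had 1798 counts in reoxygenated cells, 8649 at 1% O2 on day 10, 2615 at 20% O2 on day 10, 3964 at 1% O2 on day 1 and 2549 at 20% O2 on day 1. Its log2 difference was 1.96 on day 10 (1.90 to 2.02) and 0.58 on day 1 (0.51 to 0.65), and reoxygenated cells lay at −1.87 from 1% O2 of day 10 (−1.95 to −1.80). FN1 rose in the test of oxygen, at 1.29 (SE 0.33, edgeR adjusted p = 0.0497), the only call among 32 tested genes of the list, and DESeq2 gave an adjusted p of 0.0845. The integrin gene ITGA5 lay at 1.33 (1.24 to 1.43) and the tropomyosin gene TPM2 at 1.32 (0.94 to 1.75) on day 10. CD44, an adhesion receptor, lay at −1.08 (−1.12 to −1.03), on the same side as VIM.

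The genes on day 10 at 1% O2 thus included some epithelial junction genes and the mesenchymal FN1 above their 20% O2 counterparts, and VIM and CD44 below. Of the 31 epithelial genes past the filter, 24 lay above 0. The tight junction gene MARVELD2 was lower at 1% O2 (3.07 against 6.52 CPM). Mesenchymal genes on day 1 had a median of 0.08 with 0 past the size rule, beside 2.96% of all genes. In reoxygenated cells 7 were lower and 1 was higher than at 1% O2 on day 10 by the rule, beside 11.2% and 5.6% of all genes, with a median of −0.10. The lower place of COL3A1 there follows in part from the filter, which it passed through the 1% O2 library of day 10 alone. The whole list summed to 6181 CPM in reoxygenated cells, 6522 CPM at 1% and 6598 CPM at 20% O2 on day 10, and 6401 CPM at 1% and 6061 CPM at 20% O2 on day 1.

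**Figure D4:**
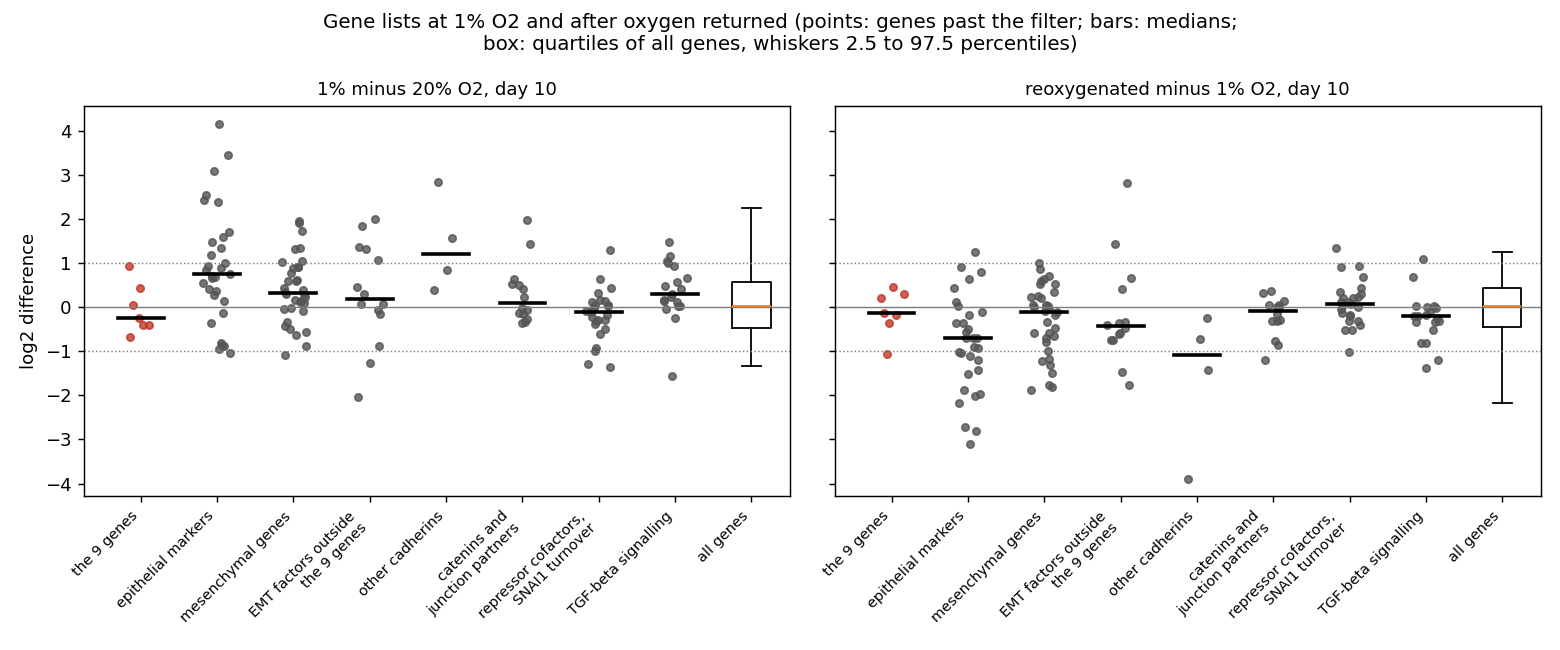
Log2 differences of the genes above the filter in each list, for 1% minus 20% O2 on day 10 (left) and reoxygenated minus 1% O2 of day 10 (right), with 1 point per gene, bars for medians and a box for the quartiles of all genes. The epithelial median is 0.76 on the left and −0.71 on the right, while the members lie at a median of −0.25 and −0.13. The −0.25 is the value of CDH1, on 9 against 13 counts. Both panels use the 1% O2 library of day 10, so opposite signs are partly built in.

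Among 20 EMT transcription factors outside the members, 14 passed the filter, and 5 were past the size rule and higher and 2 were lower at 1% O2 on day 10, beside 14.4% and 7.04% of all genes, with a median of 0.19. PRDM1 lay at 2.01 (1.46 to 2.79) with 95 against 26 counts, and SOX4 at 1.85 (1.59 to 2.15) with 438 against 141. TBX3 and FOXQ1 lay at 1.36 (0.81 to 2.05) and 1.33 (1.05 to 1.64). The chromatin protein gene HMGA2, a regulator of SNAI1 and TWIST1 in mouse mammary cells, was at −1.26 (−1.44 to −1.09), and PRRX1 was at −2.04 (−6.01 to −0.78) with 2 against 17 counts. HMGA2 and PRRX1 were named after their values were seen. In the test of oxygen, edgeR called 0 of 14, with 3 at an unadjusted p under 0.05, beside 12.2% of all genes. DESeq2 called 0 and limma-voom called 1 (SOX4).

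Of 19 other cadherins, 4 passed the filter. At 1% O2 on day 10, 2 of them, CDH3 and CDH5, were past the size rule and higher, beside 14.4% of all genes. Both passed the filter through that library alone, so no weight rests on the count. P-cadherin (CDH3) had 3 counts in reoxygenated cells, 86 at 1% O2 on day 10, 12 at 20% O2 on day 10, 9 at 1% O2 on day 1 and 9 at 20% O2 on day 1. Its chronic difference was 2.85 (2.20 to 4.08), the acute one was −0.05 (−1.56 to 1.45), and reoxygenated cells lay at −3.89 (−6.76 to −2.85) from 1% O2 of day 10. R-cadherin (CDH4) was the best counted cadherin of the list, with 1105 counts in reoxygenated cells, 2397 at 1% O2 on day 10, 1578 at 20% O2 on day 10, 2194 at 1% O2 on day 1 and 2032 at 20% O2 on day 1. It lay at 0.83 (0.74 to 0.93) on day 10 and 0.06 (−0.03 to 0.14) on day 1, and CDH24 lay at 0.39 (0.08 to 0.72) on day 10. The test of oxygen called 0 of the 2 tested by edgeR, with 0 at an unadjusted p under 0.05, beside 12.2% of all genes. DESeq2 and limma-voom called 0 as well.

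Catenins link cadherins to actin. Of 21 listed symbols of catenins and junction partners, 17 had a row and 14 passed the filter, with 2 past the size rule and higher and 0 lower at 1% O2 on day 10, beside 14.4% and 7.04% of all genes, and a median of 0.10. That share of higher genes is near the background. Plakoglobin (JUP) lay at 1.97 (1.77 to 2.19) with 842 against 251 counts, and ARVCF, a p120-family catenin, at 1.44 (0.82 to 2.28) with 59 against 24. MLLT4 (afadin) lay at 0.63 (0.55 to 0.72) and PVRL2 (nectin-2) at 0.53 (0.40 to 0.65). The test of oxygen called 0 of 14 by edgeR, with 1 at an unadjusted p under 0.05, beside 12.2% of all genes. DESeq2 called 0 and limma-voom called 1 (JUP).

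Repressor cofactors and regulators of SNAI1 turnover had 25 of 27 symbols above the filter, with 1 past the size rule and higher and 3 lower on day 10, beside 14.4% and 7.04% of all genes, and a median of −0.11. The members of this list past the rule were the Polycomb genes EZH2, at −1.35 (−1.52 to −1.20), and EED, at −1.002 (−1.20 to −0.82), the histone methyltransferase gene SUV39H1, at −1.30 (−1.59 to −1.04), and LOXL2, a lysyl oxidase that stabilizes SNAI1, at 1.31 (1.24 to 1.37). None of 25 was called by edgeR, DESeq2 or limma-voom, with 4 at an unadjusted p under 0.05 by edgeR, beside 12.2% of all genes. All 19 listed genes of TGF-beta signalling, an inducer of EMT, passed the filter, with 4 higher and 1 lower by the rule on day 10, beside the same shares of all genes, and a median of 0.30. TGFB2, a ligand gene, lay at 1.15 (1.05 to 1.25), the pseudoreceptor gene BAMBI at 1.49 (1.08 to 1.98), the latency protein gene LTBP1 at 1.05 (0.80 to 1.33), and SMURF2, a ubiquitin ligase gene, at −1.57 (−1.66 to −1.48). None of 19 was called by edgeR, DESeq2 or limma-voom, with 5 at an unadjusted p under 0.05 by edgeR, beside 12.2% of all genes.

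Other intermediate filaments and vimentin partners had 9 of 12 genes above the filter. By the rule 2 were higher and 1 was lower at 1% O2 on day 10, beside 14.4% and 7.04% of all genes, with a median of 0.02. Of the 2 higher genes, DES passed the filter through the 1% O2 library of day 10 alone. The lamin gene LMNB1 lay at −1.66 (−1.78 to −1.54), LMNB2 at −0.85 (−0.93 to −0.78), nestin (NES) at 0.88 (0.66 to 1.11) and GFAP at 1.22 (0.75 to 1.80) with 96 against 47 counts. Genes of this list thus lay on both sides of 0, with 5 of 9 above it. In the test of oxygen 0 of the 8 tested were called by edgeR, DESeq2 or limma-voom. By edgeR 1 had an unadjusted p under 0.05, beside 12.2% of all genes.

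Antisense genes with rows of their own overlap VIM, ZEB1 and ZEB2, and since the strand setting of the counting is not given in the sources used here, reads of such partners cannot be told apart. VIM-AS1 had 43 counts in reoxygenated cells, 95 at 1% O2 on day 10, 47 at 20% O2 on day 10, 79 at 1% O2 on day 1 and 62 at 20% O2 on day 1, a chronic difference of 1.21 (0.73 to 1.78). That is the opposite side from VIM, at a small fraction of its counts. ZEB1-AS1 had 41 counts in reoxygenated cells, 86 at 1% O2 on day 10, 52 at 20% O2 on day 10, 64 at 1% O2 on day 1 and 55 at 20% O2 on day 1, a chronic difference of 0.93 (0.45 to 1.48), also opposite to ZEB1. ZEB2-AS1 was listed at 0 in all 5 libraries. Shared sequence was small, as at most 1.54% of the 50-base words of a member's transcripts occurred in another gene.

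For the 3 members with at least 5 CPM in a library and a range of at least 1 on the log2 scale, the genes most like them were sought among 3322 genes with at least 5 CPM and a range of at least 1. With 5 points that share the same libraries, the coefficients are a description. SNAI1 was most like C11orf71 (Pearson r = 0.998), the chemokine receptor gene CXCR4 (0.996) and the Wnt receptor gene FZD4 (0.996). VIM was most like ESM1 (0.995), the protease gene CTSC (0.994) and the caveolin gene CAV1 (0.991), and CDH11 was most like CD74 (0.997), TMEM242 (0.995) and the complement protease gene C1S (0.994). CXCR4 lay at 2.55 log2 CPM in reoxygenated cells, 4.94 at 1% and 2.80 at 20% O2 on day 10, and 3.91 at 1% and 3.25 at 20% O2 on day 1, in the same order of libraries as SNAI1.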

How the data were processed

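RNA of MDA-MB-231 cells was sequenced in 5 libraries, with 1 per condition. The labels' protocols name column purification and an mRNA library kit. Neither the strand setting of the counting nor its annotation is given in the sources used. Bowtie2 2.1.0, RSEM 1.2.15, edgeR and the hg38 build are named in the submitters' processing notes. Expected counts by gene symbol (26475 rows, not normalized) were deposited by the authors, and 3.58 to 4.09% of its values were not whole. They also deposited a normalized signal on a CPM scale. Each library of it was rescaled by its ratio of GAPDH value to GAPDH count for a check. Between 99.93% and 99.97% of the rescaled values match the rounded counts within 0.01 reads. The normalized signal thus served only as an alternative, as log2(value + 1).

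Expected counts were rounded. A gene was kept if any library reached 1 CPM (13940 genes). TMM factors (edgeR 4.0.16, R 4.3.3) of 0.965 to 1.067 and a prior count of 2 gave log2 CPM. Pairwise differences were described with exact Clopper-Pearson 95% intervals of count ratios and a size rule of 1 on the log2 scale. The oxygen term was fitted with glmQLFit and glmQLFTest on 4 libraries with the day as a term (13011 genes that reached 1 CPM in 2 or more of them, Benjamini-Hochberg 0.05), after the scripts had been tested on simulated data. Its common dispersion was 0.0484 with 29.8 prior degrees of freedom. DESeq2 1.42.0 and limma 3.58.1 were alternatives. Gene positions came from a GRCh38 annotation and promoters from RefSeq (GRCh38.p14).

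The 9 genes, the 9 lists set beside them and the tests were chosen with earlier results of these data known. From each list up to 4 genes with the largest chronic difference and at least 5 CPM in a library are named, plus those called in the oxygen term. HMGA2, PRRX1, EPCAM, KRT8, KRT18, MARVELD2 and the marker genes fall outside that rule. So do CRB3, PPL, PRSS8, CDH5, COL3A1 and DES, which are named because they passed the filter through the 1% O2 library of day 10 alone. Lost or added reads between overlapping or similar genes follow the authors' estimation.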

Additional observations from a re-analysis of the deposited data

How the results depend on the processing

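The counts of members past the size rule moved as follows. For 1% minus 20% O2 on day 1 the count was 0, in place of 1, with genes of at least 5 CPM and with the authors' table. On day 10 it was 1, in place of 0, with library totals. For time at 20% O2 it was 1, in place of 0, with no filter, which admits CDH2. For reoxygenated cells against 1% O2 of day 10 it was 0, in place of 1, with the authors' table. For the chronic minus acute difference it was 2 with no filter, 0 with at least 5 CPM and 0 with the authors' table, in place of 1. Each of these rests on SNAI1, CDH1 or CDH2, with 180, 35 and 12 counts over the 5 libraries, and the cause was not tested. The count for time at 1% O2 moved too. There VIM, with 84306 counts over the 5 libraries, was within the rule with library totals (−0.99). CDH1 was within it in the authors' table (0.90) and dropped out with at least 5 CPM. For the members above the filter, the log2 differences kept their sign under the pairwise alternatives run for them. The exception was ZEB1 for reoxygenated cells against 20% O2 of day 10 (−0.00 to 0.14). CDH1 was not run with at least 5 CPM. CDH2 was run only with the main settings and with no filter, which cannot change a difference, and TWIST1 was not run. CDH1 on day 1 ran from −4.08 to −0.83.

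In the oxygen term, leaving out each of the 4 libraries in turn, with no day term, gave 0 to 1 members called, the lone library of a level being taken to vary like the pair. The estimate ran from −0.89 to 0.19 for VIM, from −0.61 to 0.82 for CDH11, from −0.376 to 0.0908 for ZEB1 and from −0.230 to 0.0641 for ZEB2, so each changed side with a library left out. Over all genes the calls were 130, against 49 with DESeq2, 224 with limma-voom, 81 with DESeq2 size factors, 281 with no filter, 29 with at least 5 CPM, 0 with no day term and 0 to 4225 with a library left out. FN1 lost its call with DESeq2 (adjusted p = 0.0845), DESeq2 size factors in edgeR (0.0927), the stricter filter (0.221), no day term (0.772) and with any library but 1% O2 of day 1 left out.

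Counts of all genes past the size rule on day 1 were 412, against 698 with no filter, 131 with at least 5 CPM, 651 with a prior count of 0.5 and 93 with the authors' table. They were 609 for time at 20% O2, against 938 with no filter, 236 with at least 5 CPM and 210 with the authors' table. For reoxygenated cells against 20% O2 of day 10 they were 671, against 1207, 222 and 188. With at least 5 CPM they were 1911 in place of 2899 for time at 1% O2, 1484 in place of 2337 for reoxygenated cells against 1% O2 of day 10, and 1633 in place of 2609 for the chronic minus acute difference. No paired analysis was possible because each condition had 1 library and so no further replicate numbers to pair by. The day, as a term of the oxygen fit, was the only block. Depth limits TWIST1, CDH1 and CDH2 most.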
